A study of Mus musculus with 30 samples.

Results

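The nuclear-encoded genes of the mitochondrial respiratory chain and of ATP synthase were examined in mouse liver. They were chosen by name, as the array's annotated gene symbols that start with Nduf, Uqcr, Atp5 or Cox4 to Cox8, together with Sdha, Sdhb, Sdhc and Sdhd. The annotation held 79 such genes on 94 probes. A probe was tested when its detection p-value, which compares it with negative control beads, was under 0.05 on at least 7 of the 30 arrays, and a gene was represented by its probe with the highest mean. This left 68 of the 79 genes, among 9084 genes tested on the whole array. They comprised 28 subunit genes of complex I, 3 of complex II, 5 of complex III, 12 of complex IV and 14 of complex V (ATP synthase). The remaining members were Ndufa4, which is named for complex I but is found with complex IV and was listed apart, and 5 assembly factors of complex I (Ndufaf genes), which help to build the complex without remaining in it.

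The livers came from 14 germfree mice, raised without microbes, and 16 conventional mice, raised with a gut microbiota. Both groups were C57BL/6J mice that had eaten a high-fat diet for 11 weeks and were killed after 10 h without food, so no animal on another diet and no fed animal enters the comparison. Each array of this Illumina single-colour platform held the RNA of 1 liver. The labels gave no sex, cage, litter, chip or order of processing, so the p-values measure the spread between these livers.

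Measures of array quality lay at the same level in both groups. Mean raw signal averaged 246.8 ± 73.6 intensity units in germfree livers and 244.8 ± 67.4 in conventional livers (SD, permutation p = 0.937, two-sided), and 38.4% ± 1.60 and 38.4% ± 1.94 of probes were detected (permutation p = 0.924, two-sided). Normalized arrays correlated at 0.963 to 0.99, and precision is limited by how many arrays there were. The hepatocyte genes Apoa1, Ttr, Serpina1a and Ass1 were detected in all 30 livers, with summed signals of 69664 to 95711 in germfree and 70815 to 89516 in conventional livers. The probes for Alb and Tat, also hepatocyte genes, were detected on 4 and 2 of the 30 arrays. Conventional liver 6 had the lowest mean raw signal (85.5) and the lowest share of probes detected (33.7%). Leaving out the 3 arrays with a mean raw signal under 160, this one among them, gave the same member counts as reported below, 1 lower and 0 higher. Conventional liver 5 stood apart in another way and carried transcripts of skeletal muscle and brown fat, described below with the members they touch.

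The respiratory chain carries electrons from NADH (complex I) and succinate (complex II) through ubiquinone, complex III and cytochrome c to oxygen at complex IV, and complex V uses the resulting proton gradient to make ATP. In liver this machinery oxidizes the electrons released by fatty acid breakdown during fasting and supplies the ATP for glucose synthesis. Most subunits are encoded in the nucleus, and the coactivator Ppargc1a with the transcription factors Nrf1, Gabpa, Esrra and Yy1 is known to drive many of these genes.

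Respiratory chain mRNA differed little between germfree and conventional livers. Of the 68 genes, 1 was lower in germfree liver, the complex I accessory subunit Ndufa8, and 0 were higher (limma with Benjamini-Hochberg adjustment over the 9084 genes, adjusted p under 0.05). Over all genes tested, 6.49% passed, made up of 3.75% of all genes that were higher and 2.74% that were lower in germfree liver, so the share of members that passed, 1.47%, was no larger than that background. At an unadjusted p under 0.05, 1 member was higher and 7 were lower, against 10.0% and 8.74% of all genes. All 68 members had overlapping ranges in the 2 groups, which is a description, since the share over all genes is not given here.

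The members' changes were small and lay mostly on the germfree-lower side. The median log2 change, germfree minus conventional, was -0.043 over the 68 genes (quartiles -0.10 and 0.021), against -0.0005 over all genes tested. A change below 0 was found in 46 members (67.6%), against 50.1% of all genes. Taken per liver, the members' median deviation from their means over all livers averaged -0.029 ± 0.046 in germfree and 0.020 ± 0.053 in conventional livers (SD). The members were measured in the same livers and some vary together, so their signs are not independent. By complex, the median was -0.042 in complex I, -0.061 in complex II, 0.062 in complex III, -0.044 in complex IV and -0.033 in complex V. For 42 of the 68 members the 95% interval of the change lay within 0.25 of 0 on the log2 scale, and for 63 it lay within 0.5, so larger shifts of most single genes fall outside these intervals. On simulated arrays of this size, the same fit recovered 38% of genes changed by 0.25 and 86% of genes changed by 0.5, so a change as small as the members' median would mostly not pass for a single gene. The 200 changed genes were drawn from all genes tested. Those had a median SD within groups of 0.24, against 0.18 for the members, so the recovered shares are not the members' own.

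**Figure D1:**
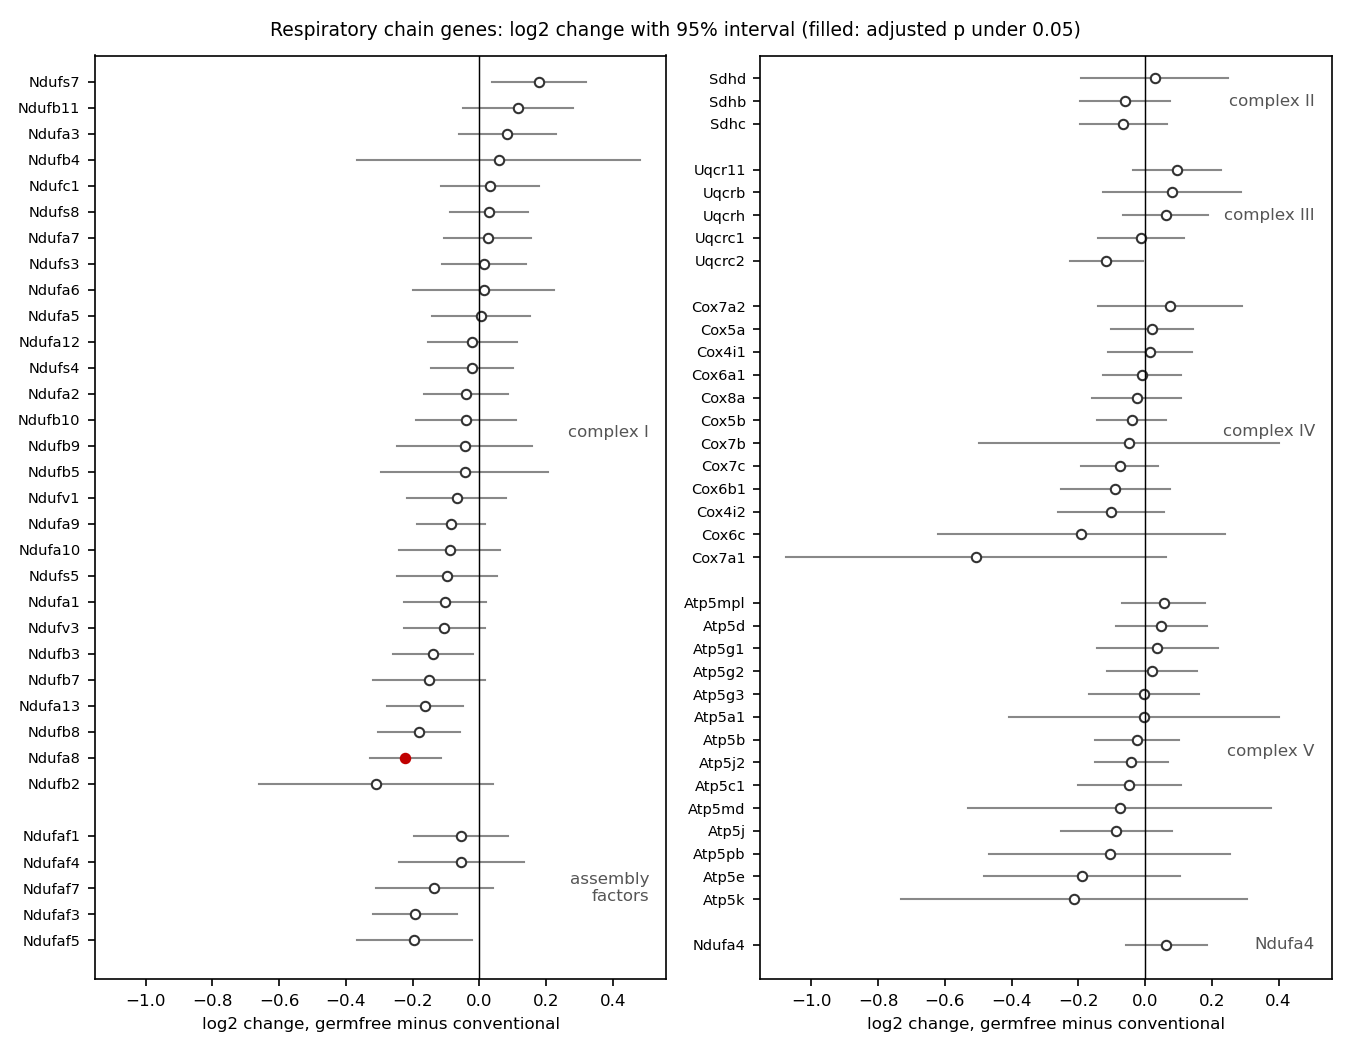
Log2 change (x axis, germfree minus conventional) of each of the 68 tested members (y axis), grouped by complex, with its 95% interval as a line; the filled point is past an adjusted p of 0.05. Ndufa8 is the filled point, most other points lie within 0.2 of 0, and the longest intervals belong to genes with a wide spread between livers, such as Cox7a1 and Atp5k.

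Complex I was the largest group, and 18 of its 28 tested subunits had a change below 0. Ndufa8 is a cysteine-rich accessory subunit that faces the space between the mitochondrial membranes. Its normalized log2 signal had a lowest value of 9.12, a median of 9.27 and a highest value of 9.43 in germfree livers, against 9.27, 9.46 and 9.69 in conventional livers. All 14 germfree livers lay below the conventional mean. In 7 germfree livers Ndufa8 was below the lowest conventional liver, and in 10 conventional livers it was above the highest germfree liver. The log2 change was -0.22 ± 0.052 (SE, 95% interval -0.33 to -0.12), or 14.3% less signal in germfree liver, with an adjusted p of 0.00657 (limma). It passed in each of 30 fits that left out 1 liver (limma, adjusted p 0.00397 to 0.0127). After median scaling over all probes its change was the same, -0.22, but did not pass (limma, adjusted p = 0.978, the highest over its alternatives, from 0.00129). That setting called 69 genes on the whole array, against 590 as reported.

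The promoter of Ndufa8 is shown because it belongs to the member that passed. It is RefSeq sequence of the assembly GRCm38.p6, chr2:36049289-36049588 on the minus strand, 250 bases before and 50 after the annotated start, written 5′ to 3′. Capitals mark the match to the NRF1 motif (GCGC, then 2 bases of any kind, then GCGC), which begins 30 bases before the start.

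Ndufa8: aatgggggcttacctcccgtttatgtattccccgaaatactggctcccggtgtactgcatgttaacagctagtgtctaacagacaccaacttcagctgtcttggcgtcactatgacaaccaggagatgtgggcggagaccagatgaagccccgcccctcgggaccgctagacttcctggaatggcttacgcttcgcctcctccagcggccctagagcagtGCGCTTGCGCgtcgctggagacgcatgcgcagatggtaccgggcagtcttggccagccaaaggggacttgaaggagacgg

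Among the other accessory subunits of complex I, Ndufb8 and Ndufa13 came nearest to the threshold. Ndufb8, a membrane-arm subunit, had log2 signals of 11.26, 11.51 and 11.76 (lowest, median and highest) in germfree livers, against 11.49, 11.64 and 12.04 in conventional livers. Germfree liver was lower in 12 of 14 animals than the conventional mean, the groups overlapped, and the log2 change of -0.18 ± 0.061 (SE) did not pass (limma, adjusted p = 0.0694). Without germfree liver 3 or 14 it passed (limma, adjusted p = 0.0401 and 0.0467, over a range of 0.0401 to 0.121 with 1 liver left out). Ndufa13, also known as GRIM-19 and needed for assembly of the complex, had 12.28, 12.45 and 12.69 in germfree livers, against 12.40, 12.61 and 12.95 in conventional livers. Again 12 of 14 germfree livers lay below the conventional mean, and the log2 change of -0.16 ± 0.056 did not pass (limma, adjusted p = 0.0811). It passed without germfree liver 2 (limma, adjusted p = 0.0469, the lowest with 1 liver left out, up to 0.13). Ndufb3 had a log2 change of -0.14 ± 0.059 (limma, adjusted p = 0.180), and 13 of 14 germfree livers were under the mean of the conventional ones. The change furthest below 0 in this complex belonged to Ndufb2, at -0.31 ± 0.17, whose levels were spread from 5.27 to 6.77 in germfree and from 5.49 to 7.04 in conventional livers (limma, adjusted p = 0.345). Over the 24 tested accessory subunits, 17 had a change below 0 and the median was -0.044.

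None of the remaining accessory subunits passed. Ndufa1, which anchors the complex in the membrane, had log2 signals of 11.11, 11.56 and 11.70 in germfree livers, against 11.42, 11.60 and 11.85 in conventional livers, a change of -0.10 ± 0.060. Ndufa9, which sits at the junction of the membrane and matrix arms, was the steadiest member (SD within groups 0.11), with 10.12, 10.32 and 10.47 in germfree livers, against 10.26, 10.39 and 10.75 in conventional livers. The highest conventional value was that of liver 5, and the change was -0.085 ± 0.050, or -0.062 ± 0.046 without that liver. Ndufb7 had a change of -0.15 ± 0.083, Ndufv3 of -0.11 ± 0.060, Ndufs5 of -0.097 ± 0.073 and Ndufa10 of -0.090 ± 0.075, and the germfree livers lay on both sides of the conventional mean in each. On the other side of 0, Ndufb11 had a change of 0.12 ± 0.082 and Ndufa3 of 0.084 ± 0.072, with 10 of 14 germfree livers above the conventional mean in both. Ndufs4, known for the mitochondrial disease that follows its loss, had levels of 10.34, 10.54 and 10.89 in germfree livers, against 10.35, 10.55 and 10.81 in conventional livers, a change of -0.024 ± 0.060. Ndufa2, Ndufa5, Ndufa6, Ndufa7, Ndufa12, Ndufb4, Ndufb5, Ndufb9, Ndufb10 and Ndufc1 had changes from -0.045 (Ndufb5) to 0.058 (Ndufb4). Ndufab1, the mitochondrial acyl carrier protein, was detected in 2 germfree and 3 conventional livers and was not tested.

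The redox core of complex I, which takes electrons from NADH to ubiquinone through a flavin and iron-sulfur clusters, did not share that side. Of its 4 tested genes, 3 had a change above 0, with a median of 0.021. Ndufs7, which holds the iron-sulfur cluster that hands electrons to ubiquinone, had log2 signals of 10.07, 10.35 and 10.69 in germfree livers, against 9.83, 10.24 and 10.56 in conventional livers. It was above the conventional mean in 12 of 14 germfree livers and had the change furthest above 0 of the 68 members, 0.18 ± 0.069, without passing (limma, adjusted p = 0.129). Ndufs8, also an iron-sulfur subunit, had a change of 0.028 ± 0.058, and Ndufs3, a core subunit of the ubiquinone-binding arm, of 0.014 ± 0.062. Ndufv1, which binds NADH and the flavin, had a change of -0.068 ± 0.073. The probe for Ndufs1, a core subunit with several iron-sulfur clusters, was detected on 0 arrays of either group, so its level was not measured. Whether core and accessory subunits differ was not tested.

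**Figure D2:**
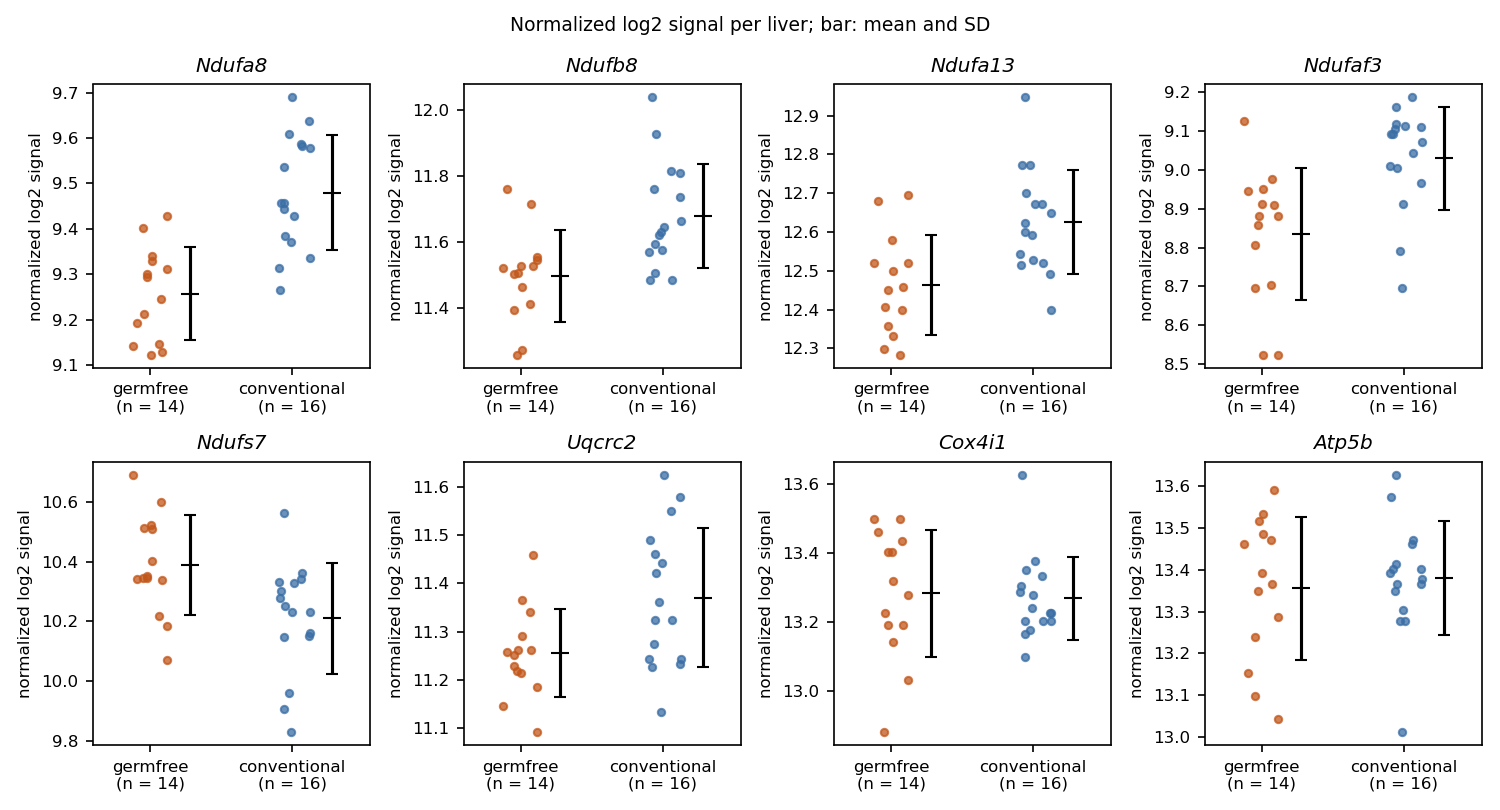
Normalized log2 signal (y axis of each panel, own scale) in each germfree liver (left, n = 14) and conventional liver (right, n = 16) for 8 members, with the mean and SD as a bar beside the points. The germfree points of Ndufa8 all lie below the conventional mean of 9.48, while those of Cox4i1 and Atp5b lie on both sides of the conventional mean.

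All 5 assembly factors of complex I had a change below 0, with a median of -0.14, and none passed. Ndufaf3, which acts with Ndufaf4 on the arm that binds ubiquinone, had log2 signals of 8.52, 8.88 and 9.12 in germfree livers, against 8.70, 9.08 and 9.19 in conventional livers. It lay below the conventional mean in 13 of 14 germfree livers and missed the threshold narrowly, with a log2 change of -0.19 ± 0.061 (limma, adjusted p = 0.0518). Leaving out germfree liver 3, 10 or 14 or conventional liver 2 or 4 brought it past the threshold (limma, adjusted p from 0.0227 to 0.0489). Ndufaf5, an enzyme known from human cells to modify Ndufs7, had a change of -0.19 ± 0.084 (limma, adjusted p = 0.189), and its further probe one of -0.24 ± 0.15. Ndufaf7, a methyltransferase, had a change of -0.14 ± 0.086 (limma, adjusted p = 0.430). Ndufaf1 and Ndufaf4 had changes of -0.054 and -0.055. The probe for Ndufaf6 was detected on 0 arrays. In a separate list of 24 tested assembly factors of complexes I to V without the Ndufaf genes, 0 passed in either direction, 14 had a change below 0 and the median was -0.021. At an unadjusted p under 0.05, 2 of them were lower. These were Acad9, a complex I assembly factor, at -0.24 ± 0.080 (limma, adjusted p = 0.0719) and Surf1, an assembly factor of complex IV, at -0.16 ± 0.069 (limma, adjusted p = 0.199).

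Complex II, succinate dehydrogenase, belongs both to the citric acid cycle and to the chain. Its iron-sulfur subunit Sdhb had log2 signals of 9.95, 10.34 and 10.69 in germfree livers, against 10.13, 10.41 and 10.62 in conventional livers, a change of -0.061 ± 0.066 (SE). The membrane anchors Sdhc and Sdhd had changes of -0.065 ± 0.065 and 0.029 ± 0.11. For these 3 genes the groups overlapped and 0 passed, and the 95% interval of each lay within 0.25 of 0. The probe for the flavoprotein Sdha was detected on 0 arrays.

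Complex III, the cytochrome bc1 complex, passes electrons from ubiquinol to cytochrome c. The core subunit Uqcrc2 had log2 signals of 11.09, 11.25 and 11.46 in germfree livers, against 11.13, 11.34 and 11.63 in conventional livers. It lay below the conventional mean in 13 of 14 germfree livers, with 5 conventional livers above the highest germfree one, and its change of -0.12 ± 0.054 did not pass (limma, adjusted p = 0.232). The other core subunit, Uqcrc1, had a change of -0.012 ± 0.063. The small subunits Uqcr11, Uqcrb and Uqcrh had changes of 0.096 ± 0.065, 0.080 ± 0.10 and 0.062 ± 0.063, all above 0 and none past the threshold. The Rieske iron-sulfur subunit Uqcrfs1 was detected in 1 germfree and 1 conventional liver and Uqcrq in 0 of either, and neither was tested.

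Complex IV, cytochrome c oxidase, reduces oxygen, and several of its subunits exist as isoforms for different tissues. The widely expressed isoform Cox4i1 had log2 signals of 12.88, 13.30 and 13.50 in germfree livers, against 13.10, 13.23 and 13.63 in conventional livers. The groups overlapped, with 2 germfree livers below the lowest conventional one, and with a change of 0.014 ± 0.062 and a 95% interval of -0.11 to 0.14. Cox5a and Cox5b, which sit beside the catalytic core, had changes of 0.021 ± 0.060 and -0.040 ± 0.051. Cox6a1 (-0.0093 ± 0.057), Cox8a (-0.025 ± 0.066), Cox7c (-0.076 ± 0.057) and Cox7a2 (0.075 ± 0.11) were likewise close to 0. Cox6b1 had a change of -0.089 ± 0.080 by the probe used and of -0.17 ± 0.066 by its further probe, which did not pass either (limma, adjusted p = 0.135). Cox4i2, the isoform known from lung and from low oxygen, was detected in 6 of 14 germfree and 12 of 16 conventional livers, so its change of -0.10 ± 0.079 is approximate. The testis isoforms Cox6b2, Cox7b2 and Cox8c were detected on at most 1 array each and were not tested, and Ndufv2, Atp5o and Cox7a2l were not analysed here.

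Complex V comprises a catalytic head, a rotating ring of c subunits and a stalk. The catalytic subunit Atp5b had log2 signals of 13.04, 13.38 and 13.59 in germfree livers, against 13.01, 13.38 and 13.63 in conventional livers. The medians were level and the change was -0.023 ± 0.062, with a 95% interval of -0.15 to 0.10. In the head and central stalk, Atp5a1 had a change of -0.0038 ± 0.20, Atp5c1 of -0.047 ± 0.076, Atp5d of 0.049 ± 0.067 and Atp5e of -0.19 ± 0.14. The c subunit is made from 3 genes with the same mature protein, and these had changes of 0.037 ± 0.089 (Atp5g1), 0.021 ± 0.066 (Atp5g2) and -0.0023 ± 0.081 (Atp5g3). Of 6 tested genes of the outer stalk and membrane part, 5 had a change below 0, from -0.042 in Atp5j2 to -0.21 in Atp5k, and Atp5mpl had one of 0.056. Over the 14 genes, 10 had a change below 0 and 0 passed. Ndufa4 had log2 signals of 12.73, 13.15 and 13.33 in germfree livers, against 12.88, 13.05 and 13.19 in conventional livers, a change of 0.064 ± 0.059.

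Further probes gave a check on the members measured more than once. Among 7 members with 8 further probes past the detection filter, 4 probes had the sign of the probe used and 4 the opposite sign (Ndufs3, Ndufs4 by both further probes and Ndufv3), and 0 of the 8 passed. All of the opposite pairs lay close to 0, the widest being Ndufv3 with -0.11 ± 0.060 by the probe used and 0.039 ± 0.092 by the other.

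The members differed far more in how they varied from liver to liver than in their group means. The typical member was steady, with a median SD within groups of 0.18 on the log2 scale, against 0.24 over all genes tested. Yet 10 members had an SD above 0.4, which is 14.7% of members and 8.30% of all genes. These genes were picked after their values were seen. Besides Cox7a1 they were Atp5k, Atp5md, Cox7b, Cox6c, Ndufb4, Atp5a1, Atp5pb, Ndufb2 and Atp5e, from complexes I, IV and V. All 10 rested on 1 probe past the filter, and the spread of a gene could depend on its probe. Ndufa5 had an SD of 0.19 by the probe used and 0.44 by its further probe, and Ndufaf5 had 0.23 and 0.45. Cox6b1 went the other way, with 0.22 and 0.17. Wide and steady therefore describe the probes used. Atp5k, whose yeast counterpart helps ATP synthase to form dimers, had log2 signals of 5.51, 6.12 and 7.99 in germfree livers, against 5.69, 6.81 and 7.83 in conventional livers, so its highest liver had 5.55 times the signal of its lowest. Cox7b, a small subunit of complex IV, had 5.53, 6.39 and 7.90 in germfree livers, against 5.66, 6.65 and 7.84 in conventional livers. Cox6c, another small subunit of that complex, had 10.68, 11.09 and 12.78 in germfree livers, against 10.93, 11.74 and 12.43 in conventional livers. The groups overlapped in all 3 genes, and for Cox6c 5 germfree livers lay below the lowest and 2 above the highest conventional liver. The ratio of highest to lowest liver was 5.15 for Cox7b, 4.95 for Atp5md and 4.30 for Cox6c, against 1.53 for Atp5b and 1.33 for Cox5b.

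The 9 widely spread genes other than Cox7a1 varied together. Cox7a1 was left out, and its correlations with them ran from -0.339 to -0.155 in germfree and from 0.023 to 0.329 in conventional livers. Over the 36 pairs of the 9 genes the median correlation across livers was 0.869 in germfree livers (0.548 to 0.987, n = 14) and 0.835 in conventional livers (0.601 to 0.948, n = 16). The points share arrays and normalization, and the genes were selected for spread, so these are descriptions. Over all 2278 pairs of members the median correlation was 0.014 in germfree and 0.079 in conventional livers. Between the widely spread members, Cox7a1 included, and the other members it was -0.195 in germfree and -0.125 in conventional livers. Ranked by the lower of the correlations in the 2 groups, the most alike pair was Ndufb4, an accessory subunit of complex I, with Atp5md, a small membrane subunit of ATP synthase (0.987 in germfree and 0.939 in conventional livers). Ndufb4 had log2 signals of 6.995, 7.64 and 8.92 in germfree livers, against 6.97, 7.74 and 8.63 in conventional livers, and Atp5md had 6.71, 7.19 and 8.49 in germfree livers, against 6.32, 7.36 and 8.63 in conventional livers. Pairs from the same complex were close too, such as Atp5a1 with Atp5md (0.961 in germfree and 0.925 in conventional livers).

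In 17 of the 30 livers these genes were all high or all low. In 4 germfree livers all 9 genes lay above their mean over the 30 livers, in 5 all 9 lay below, and 5 were mixed. In conventional livers the counts were 4, 4 and 8. The median deviation of the 9 genes ran from -0.84 in germfree liver 11 to 0.90 in germfree liver 4, a 3.33-fold range, and from -0.60 in conventional liver 7 to 0.81 in conventional liver 4, a 2.65-fold range. In both groups the livers with all 9 genes high were those numbered 2 to 5, and the labels do not say what a replicate number stands for. The group averages of that deviation were -0.055 ± 0.58 in germfree and 0.041 ± 0.51 in conventional livers (SD), well within the spread, and none of the 9 genes passed between groups.

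**Figure D3:**
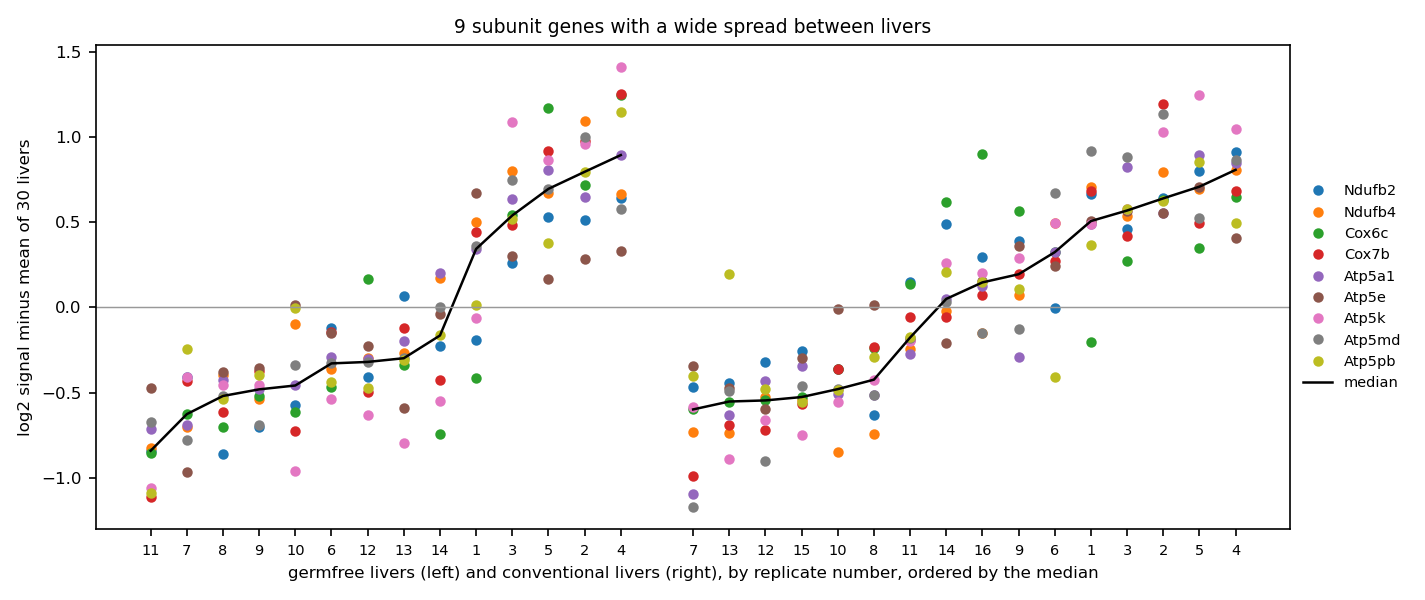
Normalized log2 signal minus the gene's mean over 30 livers (y axis) for 9 widely spread members, in germfree livers (left) and conventional livers (right), each group ordered by the median of the 9 genes (line) and labelled with the replicate number. The 9 genes move together within a liver, and both groups run from about -0.5 or lower to about 0.8.

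The shared variation coincided with the main axis of the whole array. The first principal component of all genes within groups held 15.1% of the variance. Its sign was set so that Atp5k correlated positively with it, and the members were among the genes it was computed from. Values were not scaled, so genes with a wide spread weigh more in it. An SD above 0.4 was found in 14.7% of members and 8.30% of all genes, and genes of like spread were not compared. With that sign, 15 of 68 members (22.1%) correlated with it above 0.7, against 225 of 9084 genes (2.48%). The 15 included Ndufb5, Sdhd, Uqcrb and Atp5g3 beside the widely spread genes. One member, Ndufa7, correlated below -0.7, against 123 of all genes (1.35%). For the signal strength of the array, 0 members had a slope on log2 mean raw signal past the threshold in a fit with the group as a term, against 0.462% of all genes with a positive and 0.220% with a negative slope. Likewise 0 members had a slope on the share of probes detected, against 0.727% with a positive and 1.07% with a negative slope. The axis score moved with the replicate number in both groups. In units of its SD it was 0.44 to 1.75 in germfree livers 1 to 5 and below 0 in germfree livers 6 to 14. It was 0.87 to 1.14 in conventional livers 1 to 6, below 0 in conventional livers 7 to 15 and 0.60 in conventional liver 16. What the numbers stand for is not given in the labels, and their part in the shared variation was not tested.

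Promoters of 3 co-varying genes are shown because the genes lie in different complexes and yet follow the same livers. All are RefSeq sequence of GRCm38.p6 with 250 bases before and 50 after the annotated start, 5′ to 3′: Ndufb4 at chr16:37654319-37654618 (minus strand), Atp5k at chr5:108434350-108434649 (minus strand) and Cox7b at chrX:106015450-106015749 (plus strand). Capitals mark matches to the motifs of NRF1 (as spelled out for Ndufa8), of GABP (CCGGAAG, read here as CTTCCGG on the other strand) and of ESRRA (AAGGTCA).

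Ndufb4: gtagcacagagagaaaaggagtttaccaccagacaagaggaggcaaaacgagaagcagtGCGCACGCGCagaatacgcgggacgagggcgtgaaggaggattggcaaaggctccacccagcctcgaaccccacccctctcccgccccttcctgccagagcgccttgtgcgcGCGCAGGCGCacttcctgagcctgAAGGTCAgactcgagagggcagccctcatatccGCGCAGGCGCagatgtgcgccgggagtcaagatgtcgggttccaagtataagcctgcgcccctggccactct

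Atp5k: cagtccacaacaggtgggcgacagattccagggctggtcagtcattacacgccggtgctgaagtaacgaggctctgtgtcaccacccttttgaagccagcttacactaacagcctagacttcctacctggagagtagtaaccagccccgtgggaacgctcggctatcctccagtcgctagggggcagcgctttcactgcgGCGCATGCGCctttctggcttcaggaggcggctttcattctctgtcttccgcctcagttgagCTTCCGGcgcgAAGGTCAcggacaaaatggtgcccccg

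Cox7b: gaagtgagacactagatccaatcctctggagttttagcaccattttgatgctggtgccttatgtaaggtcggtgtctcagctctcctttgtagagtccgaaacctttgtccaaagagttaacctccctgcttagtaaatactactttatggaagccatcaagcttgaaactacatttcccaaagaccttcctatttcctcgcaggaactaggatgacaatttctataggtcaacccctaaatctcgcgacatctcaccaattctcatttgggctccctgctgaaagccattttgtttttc

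Ndufb4 holds 3 matches to the NRF1 motif and 1 to the ESRRA motif, Atp5k holds 1 match to each of the 3 motifs, and Cox7b holds none of them, so the 3 genes do not share these letters. Promoters were at hand for 58 of the 68 members, and both strands were searched. The NRF1 motif was found in 14 of 58 member promoters (24.1%), Ndufa8 among them, and in 9.61% of protein-coding promoters of the same length. The GABP motif was found in 15 (25.9%), against 12.9%, and the ESRRA motif in 7 (12.1%), against 4.73%. The YY1 motif AAGATGGC was found in 9 (15.5%), against 3.57%, and its holders included Ndufb8 and Ndufs7, which had changes of opposite sign. The protein-coding promoters were not limited to genes detected in these livers, as the members were, so these shares are descriptions. A match is no evidence of binding.

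Conventional liver 5 held the muscle and brown fat forms of complex IV. Cox6a2 and Cox8b, isoforms of heart, skeletal muscle and brown fat, had raw signals of 2603 and 1799 in that liver. In germfree livers they lay between 33.5 and 80.6, and in the other 15 conventional livers between 23.6 and 71. Neither gene passed the detection filter. Skeletal muscle actin Acta1 (7132), myoglobin Mb (1222) and creatine kinase Ckm (510.2) were high in the same liver, as was Ucp1, the uncoupling protein of brown fat (1439). Acta1 had at most 202.9 in germfree livers, in germfree liver 3, and at most 68.9 in the other conventional livers. The adipocyte gene Adipoq was also highest there, at 143.4, against at most 90.6 in germfree and 87.8 in the other conventional livers. Plin4, another adipocyte gene, was at 421.1, inside the range of the other livers, and the probe for Plin1 was detected in 0 of the 30 livers. Of the 8 brown fat and muscle markers on the list, all were detected in that liver.

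**Figure D4:**
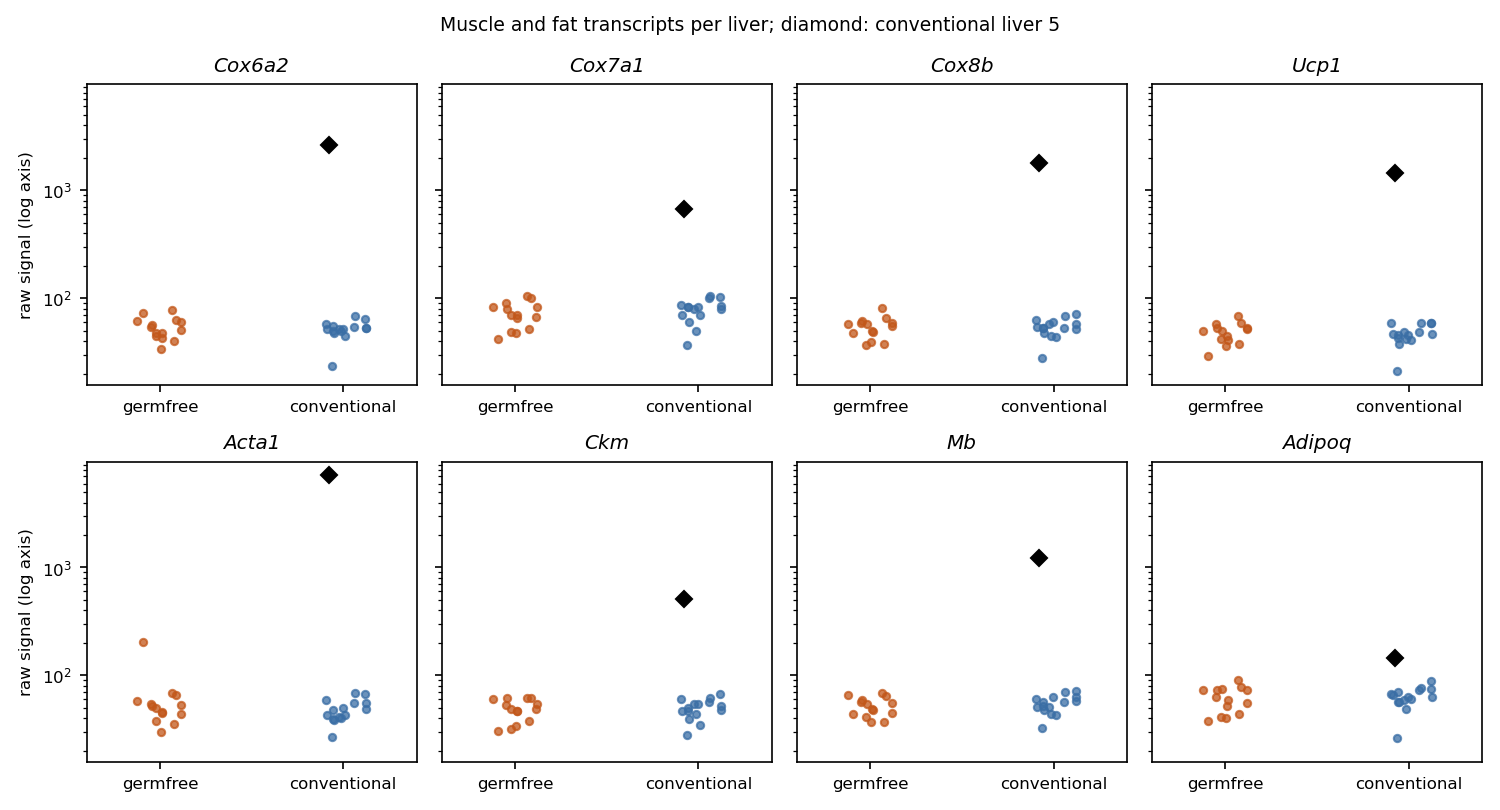
Raw signal (y axis, log scale) of 3 tissue-restricted complex IV isoforms, Ucp1, 3 muscle transcripts and the adipocyte gene Adipoq in each germfree liver (left) and conventional liver (right). Conventional liver 5, the diamond, lies above every other liver in all 8 panels, by the least in Adipoq (143.4, against at most 90.6).

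Among tested members this liver touched Cox7a1 most. Cox7a1, the muscle and brown fat isoform of its subunit, had log2 signals of 4.88, 5.10 and 5.29 in germfree livers, against 4.62, 5.41 and 9.74 in conventional livers, where the highest value was liver 5. All 14 germfree livers lay below the conventional mean of 5.62, but liver 5 raised that mean. The other conventional livers averaged 5.34, and every germfree liver lay below that value too. In 10 conventional livers, liver 5 among them, Cox7a1 was above the highest germfree liver. The log2 change was -0.51 ± 0.28 (SE) with liver 5 and -0.23 ± 0.084 without it, and neither passed (limma, adjusted p = 0.342 and 0.102). Conventional liver 5 was also the highest of the 30 livers for 13 of 68 members, among them Cox4i1, Ndufb8, Ndufv1 and Ndufa9, and had the highest median deviation over the members, 0.16. Without it, 1 member was lower and 0 were higher in germfree liver, the members' median was -0.030 with 43 below 0, and Ndufa8 had a change of -0.22 (limma, adjusted p = 0.00815). The complex I median was -0.021 without it, against -0.042 with it.

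Genes around the chain gave few changes. Of 6 tested genes that belong to the chain or feed it without matching the name rule, such as Cyc1, the cytochrome of complex III (0.066 ± 0.055), and Etfdh, which passes electrons from fatty acid oxidation to ubiquinone (-0.13 ± 0.097), 0 passed. Of 5 genes of ubiquinone synthesis 0 passed, and Coq6 had a change of -0.15 ± 0.053 (limma, adjusted p = 0.0906). Of 6 carriers and channels of the mitochondrial membranes 0 passed. Among 68 tested genes of the mitochondrial ribosome, which translates the chain's mitochondrial subunits, 1 was higher and 0 were lower, with a median of -0.048. The share higher was 1.47%, against 3.75% of all genes, and 49 (72.1%) had a change below 0, against 50.1% of all genes. The gene that was higher, Mrpl38, had log2 signals of 10.15, 10.62 and 11.26 in germfree livers, against 9.72, 10.13 and 10.66 in conventional livers (change 0.39 ± 0.11, limma, adjusted p = 0.0263).

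Upstream of the chain, the mRNA of 2 genes for enzymes that use pyruvate was lower in germfree liver. Of 15 tested genes of pyruvate entry and the citric acid cycle, 2 were lower (13.3%) and 0 higher in germfree liver, with a median of 0.0028. Over all genes tested, 2.74% were lower and 3.75% higher. Pdhb, a subunit of pyruvate dehydrogenase, had log2 signals of 7.03, 7.34 and 7.65 in germfree livers, against 7.20, 7.83 and 8.07 in conventional livers, a change of -0.42 ± 0.078 (limma, adjusted p = 0.000623). Pcx, pyruvate carboxylase, which starts glucose synthesis from pyruvate, fell by 0.28 ± 0.086 on the log2 scale (limma, adjusted p = 0.0467). Citrate synthase, Cs, had a change of 0.0006 ± 0.098.

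Among 12 tested regulators of the chain and of mitochondrial DNA, 1 was higher in germfree liver, and 1 more, Gabpa, had a change below 0 past the threshold that cannot be read as a fall. The share higher was 8.33%, against 3.75% of all genes. The coactivator Ppargc1a had log2 signals of 5.25, 6.32 and 6.97 in germfree livers, against 4.71, 5.34 and 6.18 in conventional livers, a change of 0.71 ± 0.18 (limma, adjusted p = 0.0124). Of the 68 members, 1 was lower and 0 were higher in the same livers, and a link between Ppargc1a and the members was not tested. Gabpa was detected in 2 of 14 germfree and 11 of 16 conventional livers, so it entered the test through the conventional group and was mostly at background in the germfree one. Its log2 signal averaged 4.76 ± 0.15 in germfree and 5.03 ± 0.22 in conventional livers (SD), which is given as a description. Nrf1 (-0.094 ± 0.081), Esrra (0.078 ± 0.14) and Tfam, which packages mitochondrial DNA (0.012 ± 0.10), did not pass.

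Markers of other liver cells bear on bulk RNA, where fewer cells of a type and less RNA per cell cannot be told apart. Of 7 tested Kupffer cell and macrophage markers, 3 were lower in germfree liver (Clec4f, C1qa and C1qc), with a median of -0.41. The share lower was 42.9%, against 2.74% of all genes. The summed signal of the 7 markers was 577 to 1060 in germfree and 711 to 1433 in conventional livers. The 4 tested hepatocyte markers had 0 passing, with a median of 0.051. Of 5 endothelial markers Stab2 was higher, but 3 had a change below 0 and the median was -0.18. Of 3 stellate markers Reln was higher and 1 had a change below 0, with a median of 0.22. Of 2 erythroid genes Alas2 was lower, of 2 adipocyte genes Plin4 was lower and the 1 tested acinar gene, Cela2a, was higher. Lists this short give only coarse shares to set beside the 3.75% of all genes higher and 2.74% lower. The part of these cell types in the Ndufa8 difference was not tested.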

How the data were processed

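RNA of each liver was measured on a single-colour Illumina array. Per the file headers, the authors deposited the mean bead intensity of each probe, not normalized, beside its detection p-value on that array, and a second table of intensity values after quantile normalization. GenomeStudio is named in the submitters' processing notes, with no version. The signal table held 33 further arrays without a sample in the labels, which were not used here.

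Raw signals of the 30 labelled arrays were background corrected with normexp from the detection p-values (offset 16), quantile normalized and log2 transformed with neqc in limma 3.58.1 (R 4.3.3). Of 24613 probes, 10525 had a detection p under 0.05 on at least 7 arrays. Gene names came from the platform annotation, with 20984 probes of 1 symbol, 1 of several and 3629 without a single one, that probe included, and 20968 were updated through gene identifiers and 8 through accessions. A gene was represented by its probe of highest mean, giving 9084 genes, 7839 of them named. Germfree was compared with conventional liver with lmFit and eBayes (two-sided, Benjamini-Hochberg over all genes, threshold 0.05). Errors of changes are moderated standard errors. Array quality was compared with 100000 permutations.

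The members, the gene lists and the tests were chosen with earlier results of these data known. Genes described in full were, per complex, the up to 3 with the smallest p, the furthest change in each direction, the core subunits and the isoform pairs; Ndufb3 and the widely spread genes were chosen after their values were seen. Data were simulated over 9084 genes for germfree against conventional liver, with each gene drawn independently, unlike the shared variation of the real livers. On these the fit recovered 18% of genes changed by 0.2, 38% at 0.25, 86% at 0.5 and 98% at 1, and called 2 of 8884 unchanged genes. Same-numbered livers of the groups correlated in their deviations at -0.18 to 0.373, over 0.1 in 7 of 14 pairs, so replicate numbers were not taken to pair livers. Alternatives were other background correction, normalization, filters, probe rules, weights, variance models, covariates, the replicate number as a block, a threshold of 0.01 and each liver left out. Motifs were searched in RefSeq promoters (GRCm38.p6). Plots used Python 3.11.15 and matplotlib 3.10.9.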

Additional observations from a re-analysis of the deposited data

How the results depend on the processing

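Under 19 alternatives, 0 members were higher in germfree liver, and no called value changed sign; among the medians by complex only that of complex III did, at -0.0056 without a filter, which adds undetected members. Members lower, 1 as reported, numbered 4 without background correction and with the authors' normalized values, 2 with median scaling over probes found on every array, cyclic loess, the stricter filter, the mean of a gene's probes and array weights, and 0 with median scaling over all probes. With the main axis as a covariate, added after seeing the data, they numbered 4. The additional genes were Ndufaf3, Ndufa13 and Ndufb8 (limma, adjusted p from 0.0278 to 0.0490 where they passed, up to 0.9997 under median scaling over all probes), and the cause was not tested. Over all genes, 590 passed as reported, 69 with median scaling over all probes and 264 at a threshold of 0.01. With the replicate number as a block 497 genes passed, against 476 on the same 28 arrays without it, and members lower stayed at 1 with a median of -0.038. Without the arrays with a mean raw signal under 160, members lower also stayed at 1. The complex I median was then -0.077, against -0.042 as reported, and 51 of 68 members had a change below 0, against 46.

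Leaving out 1 liver gave 519 to 609 genes, 0 members higher in each fit and 1 to 3 lower, with 3 without germfree liver 3 or 14 and 2 without germfree liver 2 or 10 or conventional liver 2 or 4. The members' median ran from -0.055 to -0.030, complex I from -0.063 to -0.021, complex II from -0.073 to -0.031, complex III from 0.039 to 0.078, complex IV from -0.063 to -0.027 and complex V from -0.064 to -0.017. Signal over background limits Cox4i2, Cox7a1, Atp5pb and Gabpa, and 11 annotated members were not tested.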
